A study of Mus musculus with 24 samples.

Results

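Interferon response genes were followed in epidermis from mice that lose the spindle checkpoint gene Mad2 in keratinocytes. The set holds 41 genes that are commonly induced by interferon, and its members were found by matching their symbols, or older synonyms, to the probe names of an Illumina BeadChip, a glass chip that carries arrays of bead-bound probes. A probe name matched for 39 of the 41 genes, and for Isg15 and Xaf1 none did. Of the 39 genes, 32 had a probe detected (detection p under 0.01) in at least 2 of the 24 arrays and were tested among 14273 genes in all. The other 7 were Oas3, Ifih1, Parp9, Ifit1 and Ifi44, detected in 0 arrays, Isg20, detected in 1 P20 control, and Mx1, detected in 1 P6 mutant. Of the 32 genes tested, 27 were detected in at least 2 control arrays, and Oas1a, Oasl1, Trim30, Mx2 and Rtp4 were not.

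Mutants were Mad2f/f; K14Cre+ mice, in which Cre recombinase is driven by the keratin 14 promoter of basal keratinocytes, and controls of the same ages were Cre-negative. Samples were taken at postnatal day 3 (P3, 2 mutants and 4 controls), P6 (2 and 2), P13 (2 and 2) and P20 (2 and 3), and all mice had a mixed B6-129Sv background. The labels give mutants no phenotype at P3 and call them nude from P6 on. The 4 adult samples were 1 mutant, 2 mutants that also carried p53f/+, and 1 control that was Mad2f/+ and carried K14-Cre. One more P3 array had a mutant genotype but was typed as a control, so it entered no comparison. Whether each sample came from its own animal is not given in the labels, so the p-values rest on a spread between samples that could be technical.

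Interferons are secreted proteins that signal through receptors, Janus kinases and STAT factors to switch on a shared group of genes. Type I interferon acts mainly through a complex that holds Stat2 and Irf9 and binds the interferon-stimulated response element, and interferon gamma acts through gamma-activated sites. The induced proteins sense foreign nucleic acid, block viruses, modify proteins with the ubiquitin-like Isg15 and help to present antigens, and in skin both keratinocytes and immune cells can respond.

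Between 23.3% and 40.1% of the 45281 probes were detected per array, and the upper quartile of intensity stood 21.2 to 182 units above the background of its array, so the number of arrays and the dim signal of many members limit the precision. Mad2l1, the targeted gene, had 4.64 to 6.27 log2 units in all mutants and 6.35 to 9.39 in all controls. The P3 array with conflicting labels had 7.69 for Mad2l1, above the 4.80 and 5.76 of the P3 mutants and inside the range of the P3 controls. All 10 keratinocyte markers tested were detected in all arrays. The arrays lay on 8 chips, and P3, P6, P13 and P20 shared no chip with each other, so age and chip cannot be told apart. On 2 of these chips, which held P20 mutant 2, P20 controls 4 and 5 and an adult p53f/+ mutant, a background had been subtracted before deposit. In bulk epidermis, fewer cells of a type and less RNA per cell cannot be told apart.

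Interferon response genes were called higher in mutants at P6, P13 and P20. In adults, with a single control array, 3 were, not far above the share over all genes. Of the 32 genes tested, 15 rose at P6, 15 at P13 and 7 at P20, and none fell at these ages (limma, Benjamini-Hochberg adjusted p under 0.05 over all genes). Over all genes tested, the share that rose was 9.5% at P6, 9.96% at P13 and 4.45% at P20, and the share that fell was 13.3%, 10.5% and 5.71%. The median log2 difference of the 32 genes was 1.70 at P6, 1.72 at P13 and 1.00 at P20, against -0.03, -0.01 and -0.03 over all genes. At P3, limma called 0 of the 32 genes in either direction (1 at an unadjusted p under 0.05), where 0.273% of all genes rose and 1.66% fell, and the median was 0.30 against 0.03 over all genes. Of the 32 genes, 15 and 16 were detected in the P3 mutants and 13 or 14 in the P3 controls. In the P6 controls 26 and 25 were. Oas1a, Oas2, Oasl1, Oasl2, Dhx58, Trim30, Ifit2, Ifit3, Rtp4, Gbp3 and Psmb9 were below background in all P3 arrays compared. Their P3 effects were thus not measured. In adults, 3 of the 32 rose and none fell, where 5.2% of all genes rose and 6.66% fell, and the median was 0.95 against -0.01. Within the 27 genes detected in at least 2 control arrays, 14 rose at P6, 12 at P13, 7 at P20 and 3 in adults. Their median log2 differences were 1.72, 1.74, 1.26 and 1.12, and 0.23 at P3.

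**Figure D1:**
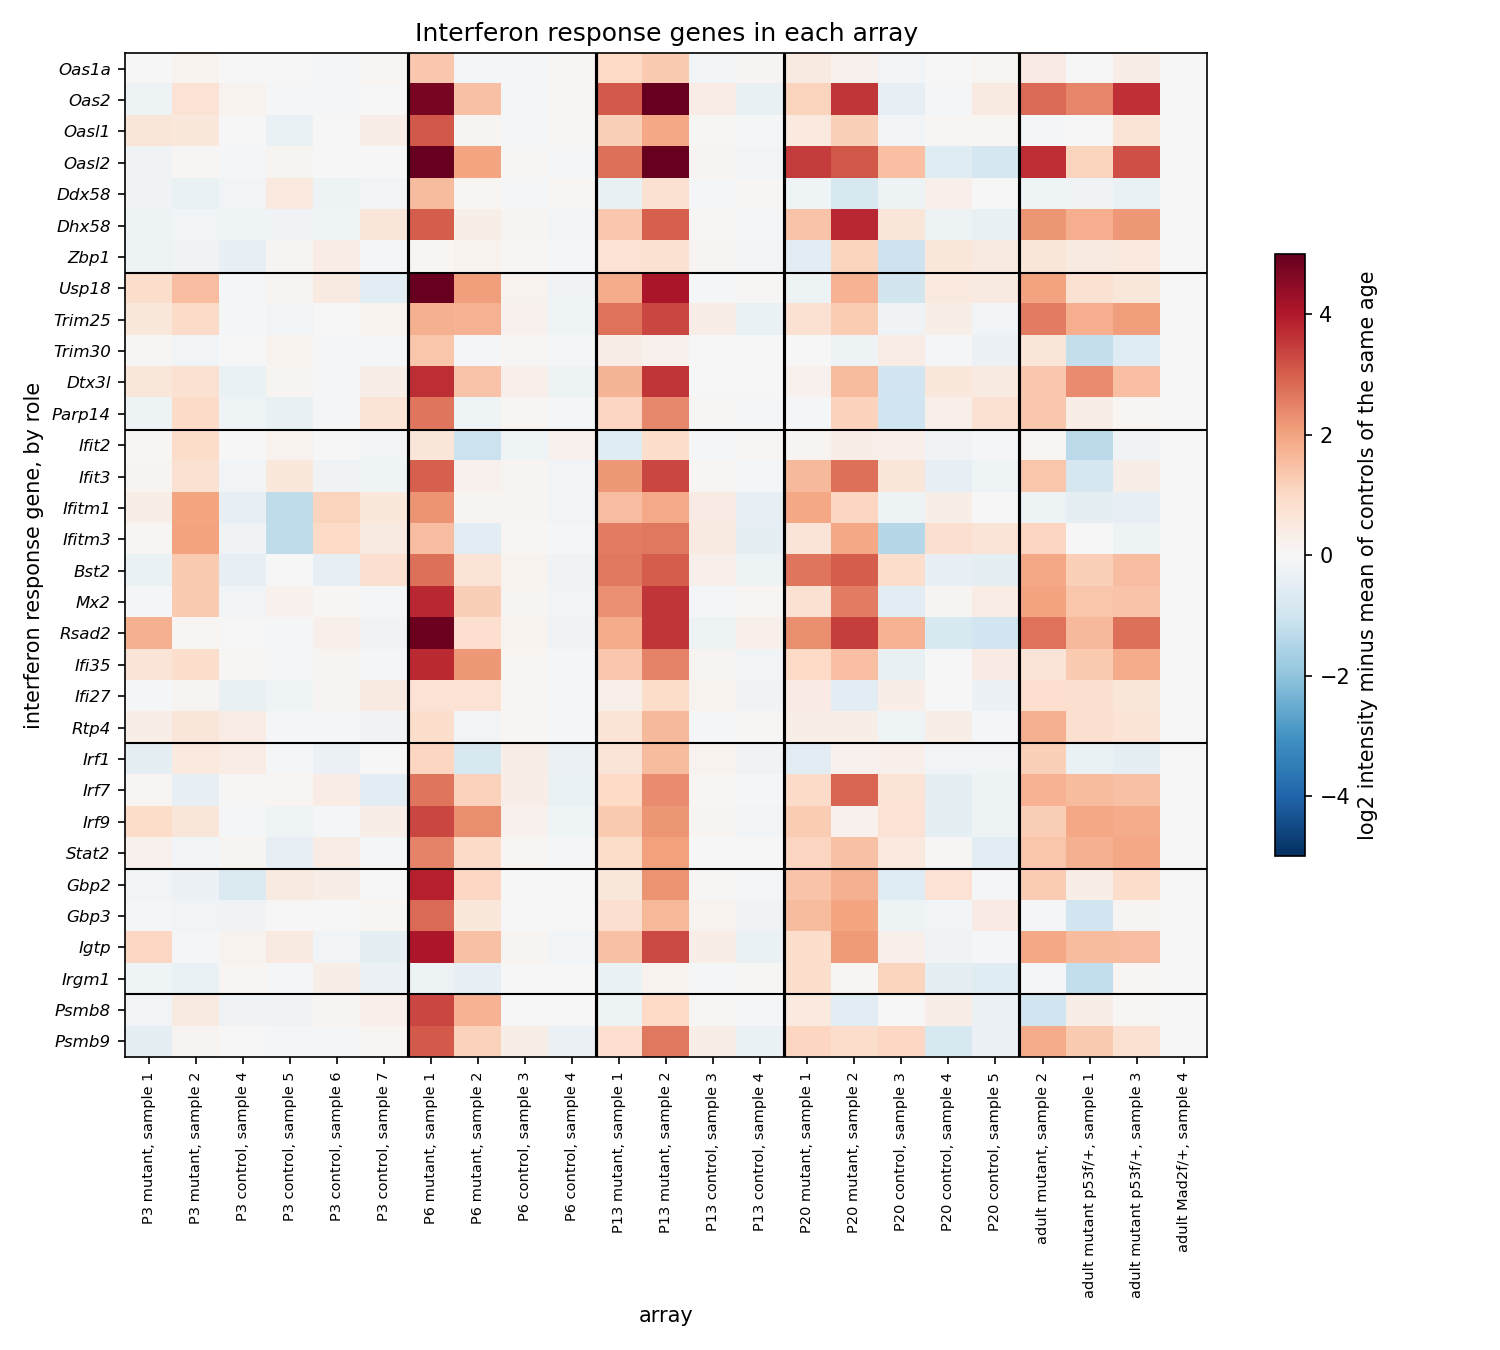
Each row is 1 of the 32 interferon response genes tested, grouped by role, and each column is 1 array. Colour gives the normalized log2 intensity minus the mean of the controls of the same age, red for higher and blue for lower, and black lines part the ages and the roles. The P6 and P13 mutant columns are red in most rows, and in both ages 1 of the 2 mutant arrays is the redder one.

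Of the 32 genes, 21 rose at P6, P13 or P20 in at least 1 of these ages, and 11 rose at none of them. Both P6 and P13 called 10 of the genes, 5 were called at P6 but not P13, and 5 at P13 but not P6. For no gene did the P6 and P13 effects differ past the threshold in a test of the difference itself, where 4.29% of all genes had a lower effect at P13. By the probes used, Trim25 and Oasl2 rose at all 3 ages, and Trim25 also rose in adults. The log2 difference was above 0 at all 3 ages for 25 of the 32 genes. For these counts across ages no share over all genes was computed. The share of all genes that rose in at least 1 of these ages cannot be below the 9.96% at P13.

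The 2 mutant arrays of an age were far apart for these genes. At P6, mutant 1 was above mutant 2 in 30 of the 32 genes and by over 1 log2 unit in 26, against 2.31% of all genes. At P13, mutant 2 was above mutant 1 in 31 genes and by over 1 log2 unit in 18, against 3.05% of all genes. At P20, mutant 2 was above mutant 1 in 21 genes, by over 1 log2 unit in 12, against 15.6% of all genes. No member differed by over 1 log2 unit between the 2 controls at P6 or at P13. Few genes did: control 3 was above control 4 by over 1 log2 unit in 0.434% of all genes at P6 and 0.392% at P13. Controls of the other ages were further apart for some members. Ifitm3 had 9.94 in P20 control 3, against 12.19 and 12.03 in P20 controls 4 and 5, which lay on another chip. Ifitm1 ran from 7.66 to 10.04 in P3 controls. The mean over the 32 genes was 9.47 and 7.53 log2 units in the P6 mutants, against 6.93 and 6.73 in the P6 controls. It was 8.09 and 9.20 in the P13 mutants, against 6.97 and 6.77 in the P13 controls. It was 8.16 and 8.70 in the P20 mutants, against 7.36, 7.28 and 7.24 in the P20 controls. At P3 it was 6.47 and 6.79 in the mutants, against 6.23, 6.26, 6.41 and 6.38 in the controls. Mutants and controls thus did not overlap in this mean at any of the 4 ages. The gap was smallest at P3, with 6.47 in the lower mutant and 6.41 in the highest control. The P3 array with conflicting labels had 6.24. How often other sets of genes part in this way was not computed. The mean includes Oas1a, Oasl1, Trim30, Mx2 and Rtp4, which were not detected in at least 2 control arrays, and was not computed without them. Gene by gene, mutants lay above controls without overlap in 22 of the 32 genes at P6, 28 at P13, 18 at P20 and 6 at P3. Over all genes these shares were 34.2%, 35.1%, 10.9% and 13.1%. At P6 1 of the 32 genes lay below, against 40.1% of all genes.

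The counts rested on single arrays. Without P6 mutant 1 the P6 count was 4, without P6 mutant 2 it was 24, and without P6 control 3 or 4 it was 9 or 5. Without P13 mutant 2 or P13 control 4 the P13 count was 2, and without P13 control 3 it was 8. Without P20 mutant 2 the P20 count was 1, and without P20 control 4 or 5 it was 2. The calls that held whichever array of the comparison was left out were those of Ifi35, Irf9, Psmb8 and Trim25 at P6, Trim25 at P13, Bst2 at P20 and Trim25 in adults. By chip, the P6 count was 5 on the chip that held both mutants and control 3, and the P20 count was 9 on one chip and 0 on the other, while all P13 arrays shared 1 chip.

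**Figure D2:**
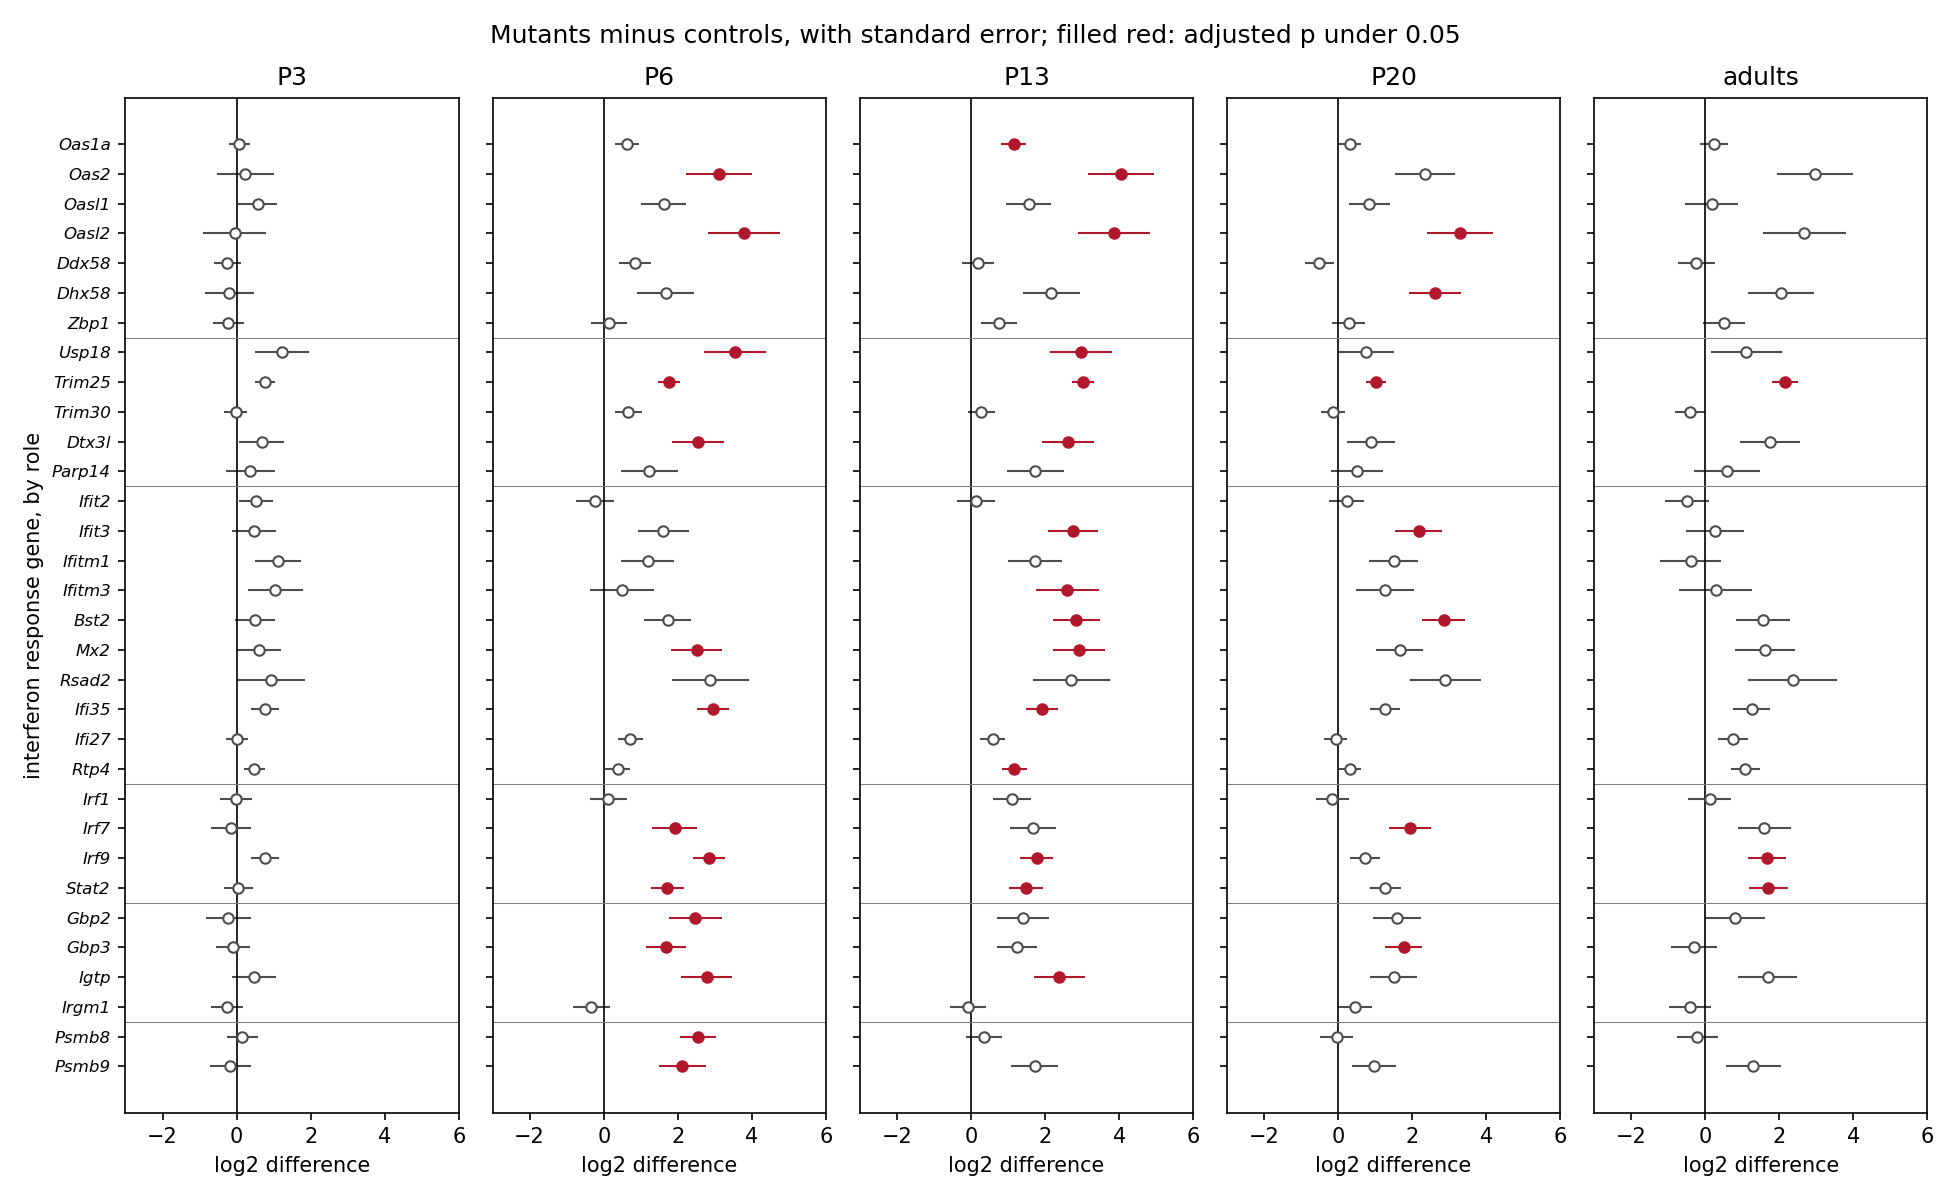
Log2 difference, mutants minus controls, of each of the 32 interferon response genes at P3, P6, P13, P20 and in adults, with its standard error. Filled red points passed an adjusted p of 0.05. At P3 0 points are filled, against 15 at P6 and 15 at P13.

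Promoter sequences are shown for some members that rose. They were picked because they hold the letters of at least 1 of the 2 elements through which the interferon pathway acts. RefSeq windows (GRCm38.p6) from 250 bases before to 50 bases after a transcript start were found for 31 of the 41 genes. The interferon-stimulated response element, searched on both strands, was in 16 of these 31 genes (51.6%), against 1079 of 27025 genes (3.99%). It was in 8 of the 16 genes with a window that rose at P6, P13 or P20 and in 4 of the 8 that were tested and rose at none of these ages. The gamma-activated site, searched as TTCNNNGAA on both strands, was in 9 of the 31 genes (29%), against 2582 of 27025 (9.55%). It was in 6 of the 16 genes that rose and in 2 of the 8 that were tested and did not. In the stretches below, matched letters are in capitals, the first 7 for the response element and the last for the gamma-activated site, and positions are counted from 0 at the transcript start. Oas1a (chr5:120907498-120907577, minus strand) has 2 overlapping matches at -20 to -5, and Ifit3 (chr19:34583355-34583434, plus strand) has 2 between -156 and -113. Bst2 (chr8:71537555-71537634, minus strand) has 2 overlapping matches at -130 to -115, which also overlap a gamma-activated site match at -136 to -128. Stat2 (chr10:128270248-128270327, plus strand) has 1 at -222 to -213, and Gbp2 (chr3:142620569-142620648, plus strand) has 1 at -59 to -50. Gbp3 (chr3:142559967-142560046, plus strand) has 2 overlapping matches at -45 to -30, and Igtp (chr11:58199487-58199566, plus strand) has 1 at -34 to -25. Psmb8 (chr17:34198062-34198141, plus strand) has the gamma-activated letters at -97 to -89. Oas1a, Ifitm3, Ifi35 and Igtp also have a gamma-activated site match, not marked here. Ifitm3 has its response element matches past the transcript start, at 2 to 28, and is not printed. A match is a description, not a bound site or a cause.
Oas1a: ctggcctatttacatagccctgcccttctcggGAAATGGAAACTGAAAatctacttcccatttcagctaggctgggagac
Ifit3: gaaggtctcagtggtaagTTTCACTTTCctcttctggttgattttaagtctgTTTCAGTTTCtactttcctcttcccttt
Bst2: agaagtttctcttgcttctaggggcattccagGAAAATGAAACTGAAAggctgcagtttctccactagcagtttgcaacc
Stat2: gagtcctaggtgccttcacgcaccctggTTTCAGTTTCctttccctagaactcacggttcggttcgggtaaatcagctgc
Gbp2: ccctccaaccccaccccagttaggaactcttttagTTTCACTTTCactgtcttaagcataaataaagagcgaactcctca
Gbp3: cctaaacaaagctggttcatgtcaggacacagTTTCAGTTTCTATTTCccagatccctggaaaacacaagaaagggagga
Igtp: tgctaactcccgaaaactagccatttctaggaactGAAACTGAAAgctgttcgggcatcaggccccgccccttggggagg
Psmb8: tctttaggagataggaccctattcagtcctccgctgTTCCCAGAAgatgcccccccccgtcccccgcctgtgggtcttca

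Among the transcription factors of the pathway, 3 of 4 rose at P6 and 2 of 4 at P13. Irf9, the DNA-binding partner of Stat2, had 10.38 and 9.38 log2 units in P6 mutants, against 7.27 and 6.81 in P6 controls, a difference of 2.84 (SE 0.44, limma adjusted p 0.000197). At P13 Irf9 had 9.03 and 9.94 in mutants, against 7.87 and 7.57 in controls, a difference of 1.77 (SE 0.44, adjusted p 0.00874). At P20 Irf9 had 9.98 and 8.93 in mutants and 9.45, 8.26 and 8.45 in controls, and the groups overlapped (adjusted p 0.29). The Irf9 effect was smaller at P20 than at P6 by a test of the difference itself (log2 -2.10, adjusted p 0.0373), a call made for 3.98% of all genes. Stat2, the other partner in the complex, had 8.55 and 7.00 in P6 mutants, against 6.15 and 5.97 in P6 controls, and rose 3.28-fold. In P13 mutants Stat2 had 6.84 and 7.97, against 5.90 and 5.94 in P13 controls, and rose 2.80-fold. Both mutants lay above both controls for Stat2 at each of these ages, as in 34.2% of all genes at P6 and 35.1% at P13. Irf7, the factor that amplifies type I interferon production, had 8.17 and 6.66 in P6 mutants, against 5.82 and 5.19 in P6 controls, 1 of them above background (3.76-fold, adjusted p 0.0344). It also rose at P20, with 6.67 and 8.65 in mutants, against 6.42, 5.28 and 5.47 in controls, only the first above background (3.83-fold, adjusted p 0.0373). Irf1, a factor induced by interferon gamma, passed the test at no age, and its 8.35 in P6 mutant 2 lay below the 9.47 and 8.87 of the P6 controls. A second Irf9 probe differed by 2.44 at P6 and by 0.88 at P13.

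By the probes used, RNA sensors and antiviral enzymes held the largest difference of the set at P6 and P20 (Oasl2) and at P13 (Oas2). Oasl2, a member of the 2′-5′ oligoadenylate synthetase family, had 11.38 and 7.77 log2 units in P6 mutants, against 5.87 and 5.72 in P6 controls, a difference of 3.78 (SE 0.98, adjusted p 0.00984). At P13 Oasl2 had 7.83 and 10.08 in mutants, against 5.22 and 4.97 in controls, which were not above background, so it was at least 12.3-fold higher. At P20 Oasl2 had 8.89 and 8.50 in mutants, against 6.90, 4.80 and 4.53 in controls (9.74-fold, adjusted p 0.0264). Only the first of these controls was above background, so this fold, like those below with such controls, rests partly on background values. Mutants and controls did not overlap for Oasl2 at any of the 3 ages. Over all genes, 34.2% lay higher in mutants without overlap at P6, 35.1% at P13 and 10.9% at P20. A second Oasl2 probe, detected in 7 arrays, differed by 1.85 at P6 (limma adjusted p 0.078) and 2.01 at P13 (limma adjusted p 0.059). At P20 it differed by 2.19 (limma adjusted p 0.045). The Oasl2 calls at P6 and P13 thus depend on the probe. Oas2, an enzyme that makes the activator of RNase L, had 9.77 and 6.49 in P6 mutants, against 4.94 and 5.14 in P6 controls, which were below background, so it was at least 7.46-fold higher (adjusted p 0.018). At P13 Oas2 had 8.14 and 10.09 in mutants, against 5.45 and 4.70 in controls, 1 of them above background, a difference of 4.04 (SE 0.89, adjusted p 0.00384). As for Oasl2, the higher arrays were P6 mutant 1 and P13 mutant 2. Oas1a, another synthetase, was called higher at P13 (adjusted p 0.0206, at least 1.27-fold), but it was detected in 1 of the 2 P13 mutants and in 0 control arrays of any age, so it was tested only through mutant arrays. Dhx58, a regulator of the RIG-I-like RNA sensors, had 6.57 and 8.92 in P20 mutants, against 5.75, 4.88 and 4.78 in P20 controls, only the first above background (6.09-fold, adjusted p 0.0255). The Dhx58 difference was 1.67 at P6 and 2.16 at P13, with adjusted p of 0.14 and 0.058. Another Dhx58 probe differed by 2.17 at P13 (limma adjusted p 0.048) and by 2.58 at P20 (limma adjusted p 0.023). A further Dhx58 probe, detected in 6 arrays, differed by 1.35 at P13 and 1.33 at P20 and was not called. Ddx58, the sensor RIG-I, and Zbp1, a sensor of Z-form nucleic acid, passed at no age, and their differences lay between -0.51 and 0.83 from P6 to P20. Oasl1 did not pass by the probe used, while another Oasl1 probe differed by 1.47 at P6 (adjusted p 0.042) and by 1.47 at P13 (adjusted p 0.045).

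In the ubiquitin and Isg15 group, Trim25, a ubiquitin ligase that activates RIG-I and can attach Isg15, was called at the most ages, and Usp18 and Dtx3l had larger differences at P6. Trim25 had 10.82 and 10.79 log2 units in P6 mutants, against 9.27 and 8.81 in P6 controls, a 3.39-fold rise (adjusted p 0.000441). At P13 Trim25 had 11.13 and 11.76 in mutants, against 8.75 and 8.09 in controls, an 8.13-fold rise (SE 0.30 on the log2 scale, adjusted p 2.81e-06). At P20 Trim25 had 10.65 and 11.16 in mutants, against 9.70, 10.17 and 9.75 in controls, a 2.04-fold rise (adjusted p 0.0236). Unlike most members, Trim25 was almost level between the P6 mutants, 0.03 log2 units apart. At P3 Trim25 had 9.98 and 10.37 in mutants, against 9.35, 9.28, 9.44 and 9.60 in controls, without overlap, and the difference of 0.76 did not pass the test over all genes (adjusted p 0.271). Of all genes, 13.1% lay higher in P3 mutants without overlap. The Trim25 effect was larger at P13 than at P3 by 2.26 (adjusted p 0.00268), a call made for 4.1% of all genes. The P20 effect minus the P13 effect was -2.00 (adjusted p 0.0069), and 4.07% of all genes were called lower in this test. A second Trim25 probe was detected in 2 arrays and was not called. Usp18, the protease that removes Isg15 and restrains the type I receptor, had 11.30 and 8.43 in P6 mutants, against 6.51 and 6.15 in P6 controls (11.6-fold, adjusted p 0.00536). At P13 Usp18 had 8.85 and 11.07 in mutants, against 6.93 and 7.06 in controls (7.81-fold, adjusted p 0.0177). A second Usp18 probe gave 2.10 at P6 (adjusted p 0.054) and 0.81 at P13. Dtx3l, a ubiquitin ligase that pairs with Parp9, had 10.26 and 7.99 in P6 mutants, against 6.82 and 6.34 in P6 controls (5.84-fold), and 8.79 and 10.67 in P13 mutants, against 7.15 and 7.08 in P13 controls (6.15-fold). Parp14, an ADP-ribosyl transferase, and Trim30, a Trim-family regulator, passed at none of the 4 ages.

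**Figure D3:**
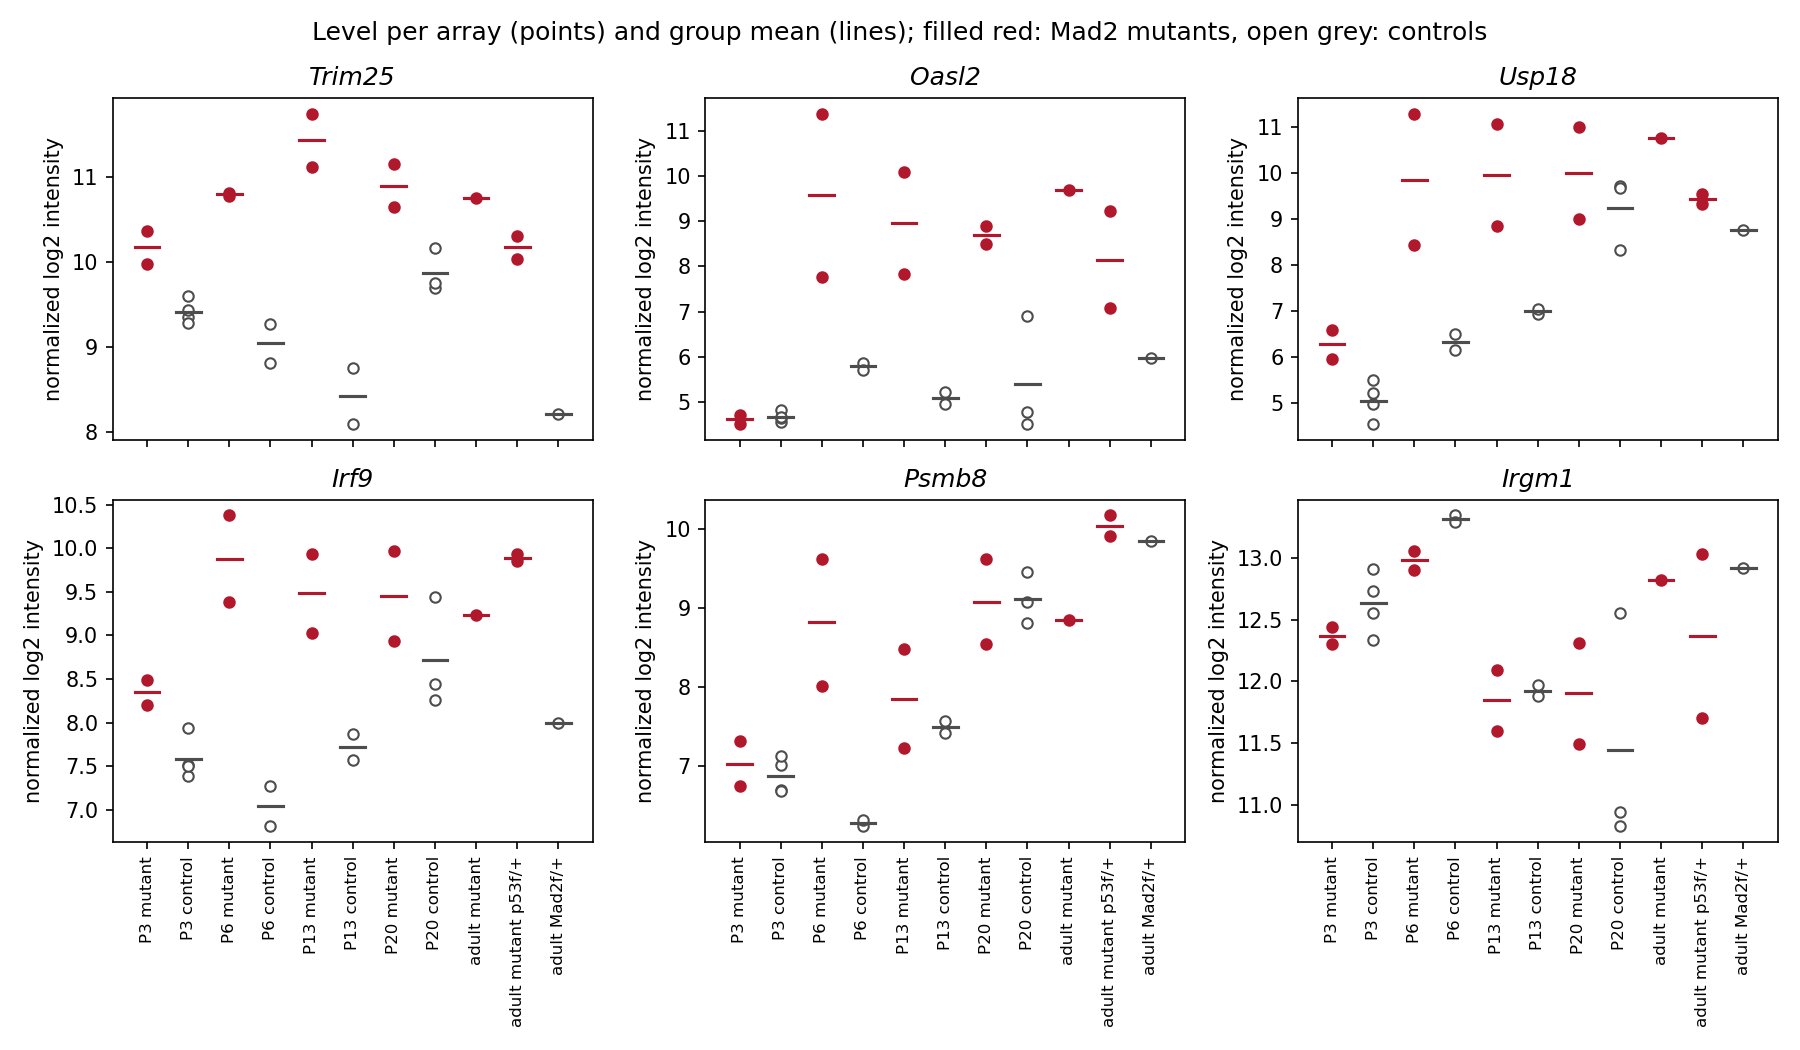
Normalized log2 intensity of Trim25, Oasl2, Usp18, Irf9, Psmb8 and Irgm1 in each array, by age and genotype, with the group mean as a line. Filled red points are Mad2 mutants and open grey points are controls. Trim25 is higher in every mutant than in every control of the same age. For the Irgm1 probe used, both P6 mutants lie below both P6 controls and the P13 groups overlap.

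Antiviral effectors made up 6 of the 15 genes that rose at P13 and 2 of the 15 at P6, of 10 tested. These counts include Mx2 at both ages and Rtp4 at P13, which passed the detection filter only through mutant arrays. Ifi35, an interferon-induced protein with a leucine zipper, had 9.75 and 8.18 log2 units in P6 mutants, against 6.09 and 5.93 in P6 controls, and rose 7.75-fold (adjusted p 0.000117). At P13 Ifi35 had 7.91 and 9.02 in mutants, against 6.68 and 6.44 in controls, and rose 3.76-fold (adjusted p 0.00485). Mx2, a dynamin-like antiviral GTPase, had 8.91 and 6.37 in P6 mutants, against 5.26 and 5.01 in P6 controls, and 7.12 and 8.42 in P13 mutants, against 4.74 and 4.97 in P13 controls. These Mx2 controls were below background, so Mx2 was at least 5.28-fold higher at P6 and at least 5.41-fold higher at P13. Mx2 was detected in 10 mutant arrays and in 1 control array of any age, so it was tested only through mutant arrays. Bst2, the protein tetherin that holds budding viruses at the cell surface, had 8.01 and 8.41 in P13 mutants, against 5.61 and 5.13 in P13 controls, 1 of them above background (7.14-fold, adjusted p 0.0043). At P20 Bst2 had 7.88 and 8.26 in mutants, against 6.09, 4.79 and 4.76 in controls, only the first above background (7.22-fold, adjusted p 0.00472). The lowest mutant was above the highest control for Bst2 at both ages. At P6 Bst2 had 9.01 and 6.94 in mutants and 6.45 and 6.06 in controls, without overlap, and its adjusted p was 0.0625. Such a gap was seen in 34.2% of all genes at P6, 35.1% at P13 and 10.9% at P20. Ifit3, an RNA-binding tetratricopeptide protein, had 8.57 and 9.76 in P13 mutants, against 6.48 and 6.34 in P13 controls (6.76-fold), and 6.98 and 8.12 in P20 mutants, against 5.99, 4.98 and 5.15 in P20 controls, only the first above background (4.52-fold). Ifitm3, a membrane protein that blocks virus entry, had 13.82 and 13.91 in P13 mutants, against 11.71 and 10.82 in P13 controls (6.06-fold, adjusted p 0.0407). In P6 mutant 2, Ifitm3 had 11.64, below the 12.27 and 12.12 of the P6 controls. Rsad2, the antiviral enzyme viperin, had some of the largest differences, 2.87 at P6, 2.71 at P13 and 2.90 at P20, but its adjusted p was 0.0593, 0.0802 and 0.0663. Rsad2 had 11.40 and 7.35 in P6 mutants, against 6.69 and 6.31 in P6 controls, and 8.34 and 10.05 in P13 mutants, against 6.25 and 6.73 in P13 controls, without overlap. Rtp4, a receptor transport protein, was called higher at P13 (at least 1.59-fold), but it was detected in 1 of the 2 P13 mutants and in 0 control arrays of any age, so it too was tested only through mutant arrays. Ifit2, a relative of Ifit3, and Ifitm1, a relative of Ifitm3, did not pass by the probes used.

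Some effectors had probes that disagreed. For Ifitm1 the probe used differed by 1.18 at P6 and 1.73 at P13, and another probe by -2.17 at P6 (adjusted p 0.054) and 3.12 at P13 (adjusted p 0.00854). For Ifi27, a mitochondrial interferon-induced protein, the probe used differed by 0.71 at P6 and by 0.59 at P13. A probe whose name is both Ifi27 and an older name of its relative Ifi27l2a differed by 3.79 at P13 (adjusted p 0.00559) and by 3.37 at P20 (adjusted p 0.0135), so which of these genes rose is uncertain.

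Of the 4 GTPases typical of the interferon gamma response, 3 rose at P6, 1 at P13 and 1 at P20, and no test of the difference between these ages called any of them. Gbp2, a guanylate-binding protein that attacks the vacuoles of intracellular microbes, had 10.62 and 7.77 log2 units in P6 mutants, against 6.75 and 6.70 in P6 controls (5.54-fold, adjusted p 0.0176). Igtp, an immunity-related GTPase, had 9.92 and 7.34 in P6 mutants, against 6.00 and 5.72 in P6 controls (6.83-fold), and 7.89 and 9.70 in P13 mutants, against 6.73 and 6.08 in P13 controls (5.24-fold). Gbp3, a relative of Gbp2, had 8.81 and 6.47 in P6 mutants, against 5.97 and 5.95 in P6 controls, and rose 3.20-fold. In P20 mutants Gbp3 had 7.33 and 7.74, against P20 controls of 5.50, 5.63 and 6.16 that were below background, so it was at least 2.79-fold higher. Another Gbp3 probe differed by 1.13 at P6 (limma adjusted p 0.26) and by 2.11 at P20 (limma adjusted p 0.036), so the P6 call depends on the probe. Irgm1, a regulator of these GTPases, passed at no age, with 13.06 and 12.90 in P6 mutants and 13.34 and 13.29 in P6 controls. At P13 Irgm1 had 11.60 and 12.09 in mutants and 11.88 and 11.97 in controls, which overlapped. The Irgm1 probe used differed by -0.34 at P6, -0.08 at P13 and 0.46 at P20. Another Irgm1 probe, detected in 12 arrays, differed by 1.38, 1.54 and 1.33. It was not called either (limma adjusted p 0.10, 0.073 and 0.13).

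Both immunoproteasome subunits of the set rose at P6 and neither passed at P13 or P20 by the probes used. These subunits, Psmb8 and Psmb9, replace constitutive catalytic subunits of the proteasome and change the peptides it makes for class I presentation. Psmb8 had 9.62 and 8.02 log2 units in P6 mutants, against 6.24 and 6.31 in P6 controls (5.84-fold, adjusted p 0.00104). At P20 Psmb8 had 9.62 and 8.55 in mutants and 9.08, 9.46 and 8.80 in controls, and the groups overlapped. The Psmb8 effect was smaller at P20 than at P6 (log2 -2.58, adjusted p 0.019) and larger at P6 than at P3 (2.40, adjusted p 0.0224), where 4.6% of all genes had a larger effect at P6. Psmb8 had 8.80 to 9.46 in P20 controls and 6.24 to 6.31 in P6 controls, which lay on different chips. Another Psmb8 probe differed by 1.48 at P6 and by 1.26 at P13 (adjusted p 0.013), so the P13 call depends on the probe. At P20 it differed by 0.98 (limma adjusted p 0.053), against -0.03 for the probe used, so the size of the P20 effect depends on the probe too. Its effects were not tested between ages. Psmb9 had 9.42 and 7.48 in P6 mutants, against 6.64 and 6.04 in P6 controls (4.33-fold, adjusted p 0.024), and its adjusted p at P13 was 0.0679. Of 8 constitutive proteasome subunits tested, 0 were called by limma at P6, P13 or P20, with 0, 1 and 3 at an unadjusted p under 0.05.

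The effects after P3 were set against the P3 effect in a test of the difference. The mean effect of P6, P13 and P20 was larger than the P3 effect for Trim25 (1.18, SE 0.31, adjusted p 0.0319) and Oasl2 (adjusted p 0.038), and for no other member, where 3.57% of all genes passed in this direction. Oasl2 had 4.52 and 4.73 in P3 mutants and 4.58 to 4.82 in P3 controls, all below background, so its P3 effect was not measured and the size of its change after P3 is not given. Ifi35 and Irf9 also had larger effects at P6 than at P3, by 2.20 (adjusted p 0.0203) and 2.07 (adjusted p 0.0307). No member's effect was called larger at P20 than at P3, where 2.16% of all genes were. Other members below background in all P3 arrays compared, such as Oas2 and Gbp3, had no measured P3 effect in these tests either. Neither the Oasl2 nor the Trim25 call held whichever array was left out: the count of 2 became 0 without P3 mutant 1 or 2, P3 control 4, 6 or 7, P6 control 4, P13 mutant 2 or P13 control 4. It became 1 without P3 control 5, P6 mutant 1, P6 control 3, P13 control 3 or P20 control 4 or 5, 4 without P13 mutant 1, 5 without P20 mutant 1, 6 without P20 control 3 and 16 without P6 mutant 2.

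The controls themselves differed between ages, and so between chips, in 17 of the 32 genes (moderated F test over P3, P6, P13 and P20 controls), close to the 45% of all genes that did. The P3 array with conflicting labels fell inside the span of the P3 controls for 25 of the 32 genes and inside that of the P3 mutants for 12.

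In adults, Trim25, Irf9 and Stat2 rose. Trim25 had 10.03 and 10.31 log2 units in the p53f/+ mutants and 10.76 in the other mutant, against 8.21 in the single Mad2f/+ control (4.47-fold, adjusted p 0.000485). Irf9 had 9.94 and 9.85 in the p53f/+ mutants and 9.23 in the other mutant, against 8.0 in the control (adjusted p 0.0417). Stat2 had 7.75 and 7.93 in the p53f/+ mutants and 7.38 in the other mutant, against 5.98 in the control (adjusted p 0.0435). For 1 of the p53f/+ mutants no detection p-values were given, and its background was estimated from the other arrays of its chip. The control is 1 array, so its spread is taken from the other groups. Without either p53f/+ mutant the adult count was 1, and it was also 1 on the chip that held 3 of the 4 arrays. The p53f/+ mutants differed from the other mutant in Trim30 (log2 -1.53, adjusted p 0.0261), with 4.59 and 5.15 against 6.40, where 15.5% of all genes were called in either direction. The other mutant is 1 array, with its spread taken from the other groups, and the p53f/+ mutants were below background for Trim30, so it was at least 1.59-fold lower there.

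The rest of the interferon pathway was read from lists that hold none of the members. Of 19 interferon ligands, 4 passed the detection filter and limma called 0 of them at any age (0 at P6, 1 at P13 and 0 at P20 at an unadjusted p under 0.05). Of 8 receptor and Janus kinase genes, Ifngr1 (1.47), a chain of the interferon gamma receptor, and Jak2 (1.28), a kinase of that receptor, rose at P6, and Ifngr2 (0.97), the other chain, rose at P13. Jak1, the kinase shared by the type I and gamma receptors, fell at P6 by 2.08, at P13 by 1.96 and at P20 by 1.22 on the log2 scale. Jak1 had 5.41 and 5.45 in P6 mutants, against 7.50 and 7.51 in P6 controls.

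Of 16 nucleic acid sensing genes, 7 rose at P6, 10 at P13 and 2 at P20, and none fell. Samhd1, which breaks down free nucleotides, rose by 3.76 at P6, 3.83 at P13 and 2.48 at P20, and Trex1, which degrades cytosolic DNA, by 2.30, 2.66 and 2.05. Cgas, the sensor of cytosolic DNA, rose by 2.29 at P6 and also rose at P13. Of 9 negative regulators, 1 rose at P6 and 3 at P13, while 1 rose and 2 fell at P20, and Socs3, a feedback inhibitor of cytokine signalling, rose by 1.54 at P6 and 1.99 at P13.

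Of 11 genes of class I antigen presentation, 8 rose at P6, 7 at P13 and 0 at P20 (0 at an unadjusted p under 0.05, limma). Nlrc5, the activator of class I genes, rose by 3.23 at P6 and 2.46 at P13. Of 18 further interferon targets, 6 rose at P6, 4 at P13 and 0 at P20 (3 at an unadjusted p under 0.05). Cxcl9, a chemokine that draws T cells, had 10.64 and 7.52 in P6 mutants, against 5.48 and 5.21 in P6 controls, a rise of 3.73. Ly6e, an interferon-induced surface protein, rose by 3.41 at P13.

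Markers of other cell types also moved with genotype, and their part in the interferon gene differences was tested only as a covariate. Of 18 fibroblast markers, 17 fell at P6, and their summed level was 1672 to 1851 intensity units in P6 mutants and 52243 to 62129 in P6 controls. The collagen genes Col1a1 and Col3a1 were detected in 0 of the 2 P6 mutants. Of 9 Langerhans cell markers, 8 rose at P6, with sums of 31746 to 33068 in P6 mutants and 8844 to 11593 in P6 controls. These 9 were Cd207, Mfge8 and the class II antigen presentation genes H2-Aa, H2-Ab1, H2-Eb1, Cd74, H2-DMa, H2-DMb1 and Ciita. Their rise is no count of Langerhans cells. At P13, 2 of the 18 fibroblast markers rose and 2 fell, with sums of 30356 to 34334 in mutants and 35422 to 49162 in controls, and 0 of the 9 Langerhans cell markers were called (4 rose at an unadjusted p under 0.05, limma). Of 5 neutrophil markers, 3 rose at P6, 4 at P13 and 3 at P20, with sums of 9552 to 42729 in P6 mutants and 1197 to 1674 in P6 controls. The 5 were S100a8, S100a9, Ltf, Cxcr2 and Retnlg, and 3 of them were detected in each P6 mutant. Which cells made these transcripts was not tested. At P13 the neutrophil sums were 22593 to 27090 in mutants and 2121 to 2575 in controls, and at P20 3540 to 11387 in mutants and 124 to 630 in controls. Of 14 myeloid markers, 4 rose and 1 fell at P6, 7 rose at P13 and 1 rose at P20, and of 8 T and NK cell markers 4 fell at P20 and 4 rose in adults. In adults 3 of the 5 neutrophil markers also rose. Of 13 endothelial and blood markers, 11 fell at P6 (median log2 difference -3.19), 4 rose at P13, 1 fell at P20 and 8 fell in adults. Keratinocyte markers had means of 13.76 and 13.96 log2 units in P13 mutants, against 12.77 and 12.69 in P13 controls, and 3 of 10 rose there. In adults these means were 13.8 in both p53f/+ mutants and 13.7 in the other mutant, against 13.0 in the control, and 2 of 10 rose. With the fibroblast marker mean as a covariate the count of interferon genes called was 0 at P6, where mutants and controls did not overlap in these markers and the 2 cannot be told apart, while 14 of the 15 calls held at P13 and 6 of the 7 at P20. With the mean of myeloid, Langerhans and T and NK cell markers as a covariate it was 3 at P6 and 1 at P13, with median log2 differences of 0.98 and 1.05 over the 32 genes, while all 7 calls held at P20. Mutants and controls did not overlap in the myeloid or the Langerhans cell marker means at P6 or P13, so genotype and these markers cannot be told apart there. Whether the class II genes in this covariate themselves respond to interferon was not tested. In adults, 16 of 18 fibroblast markers fell, with sums of 1632 to 3244 in p53f/+ mutants, 46610 in the other mutant and 102482 in the control, and with the fibroblast covariate 0 interferon genes were called.

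**Figure D4:**
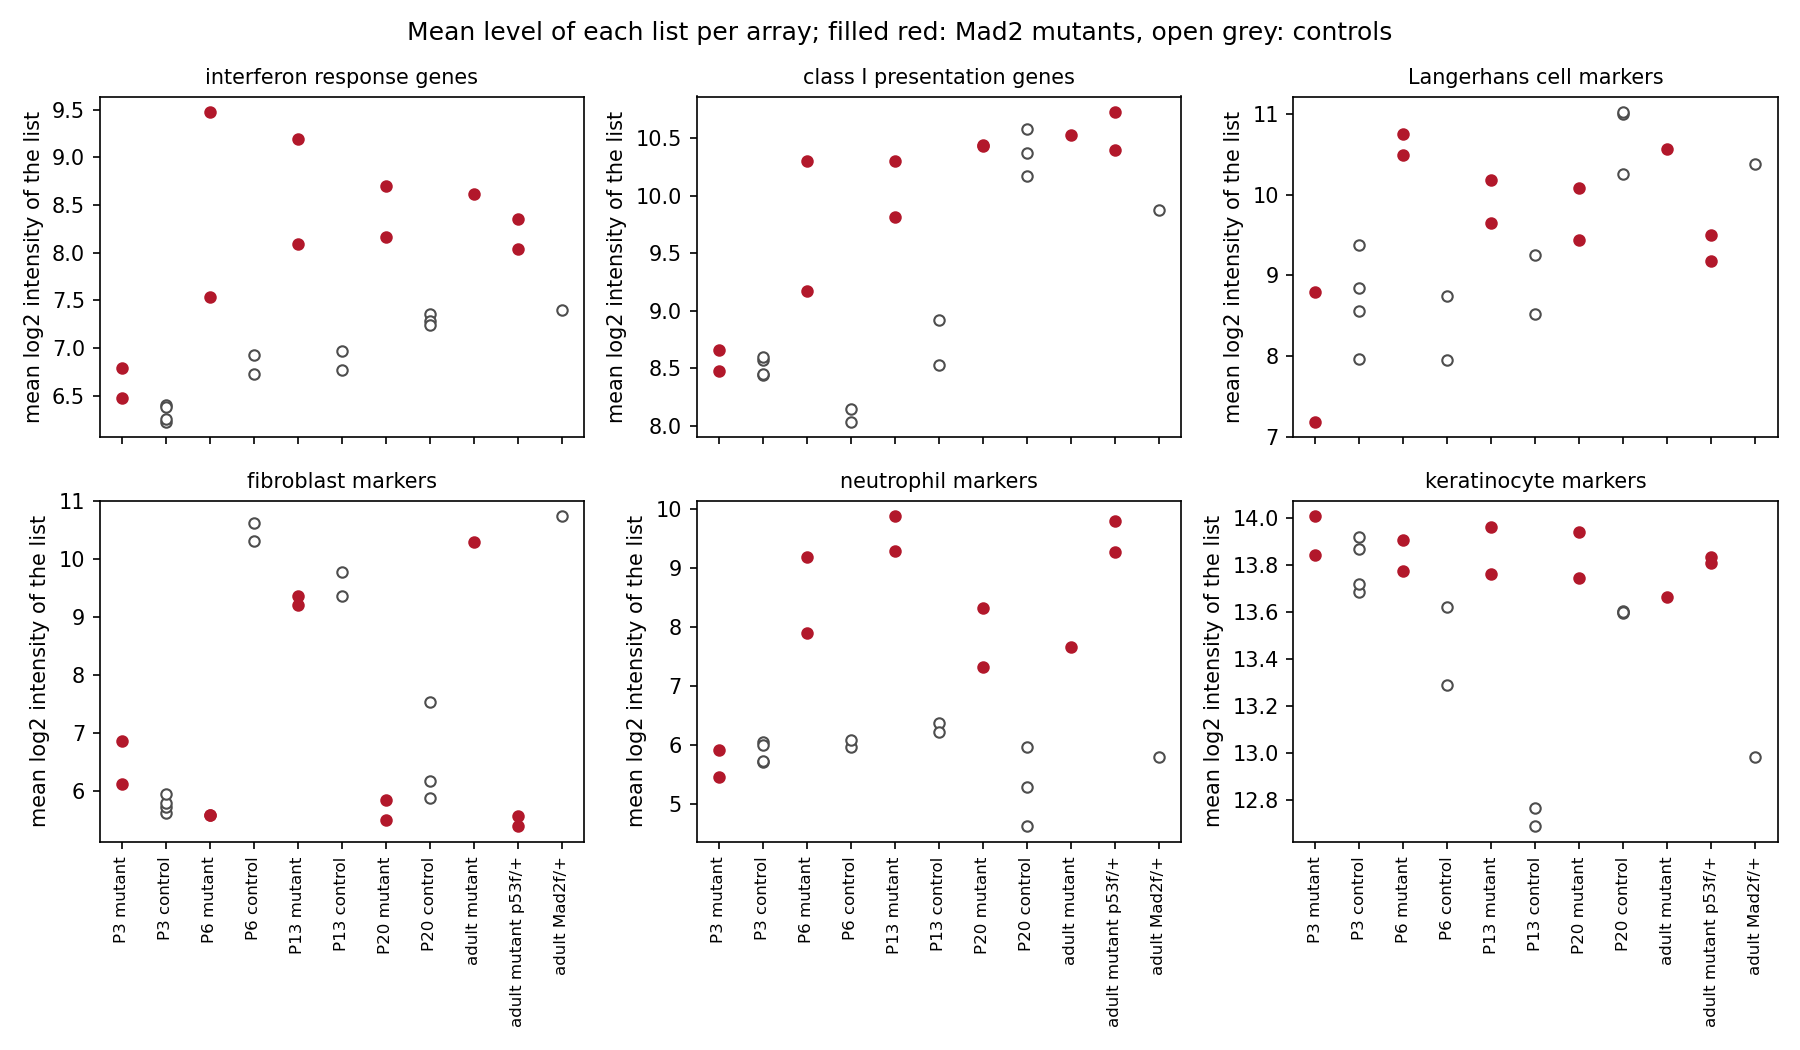
Mean normalized log2 intensity of 6 gene lists in each array, by age and genotype: interferon response genes, class I presentation genes, and markers of Langerhans cells, fibroblasts, neutrophils and keratinocytes. Filled red points are Mad2 mutants and open grey points are controls. Interferon response genes are higher in mutants than in controls of the same age at every age, by the least at P3, where the closest arrays had 6.47 and 6.41. Fibroblast markers are far lower in mutants at P6, and neutrophil markers are higher in mutants from P6 on.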

How the data were processed

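RNA of epidermis, peeled from dermis after overnight trypsin per the labels, was measured on 24 Illumina arrays. The deposited file held the bead intensity of each probe before any normalization, and 4 arrays on 2 chips had values below 0, left by a subtracted background. Each intensity has a detection column beside it, per the file headers, and 10 of these held the deposited p-value while 13 held the deposited fraction 1 minus p. For 1 array that column held bead numbers, and 1 per-sample column was not used. The authors' matrix held log2 values normalized with limma, per the submitters' processing notes, and held 1977 probes in adults.

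Intensities were background-corrected (normexp from detection p-values, offset 16), quantile-normalized and log2-transformed in R 4.3.3 with limma 3.58.1. Probes detected in at least 2 arrays at a detection p under 0.01 were kept, and each gene took its probe with the highest mean. One model with a mean per group was fitted, with 12 residual degrees of freedom and 4.10 from the prior, with p-values adjusted by Benjamini-Hochberg over all 14273 genes, at 0.05. Where a group was below background in all its arrays, a lower bound of the fold was computed. For it, values under the lowest detected signal of their array were raised to that signal. All 41 members were followed. Of the pathway lists, the counts, the genes with the largest changes past the threshold, up to 4 per list, and the receptor and Janus kinase genes were named, and 1 gene of the pathway is not reported here. Irf1, Ifitm3 and other array values in the text were picked after they were seen. The members and lists were chosen with earlier results of these data known. The filter on detection in control arrays was chosen after seeing the data. The scripts were tested on simulated data.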

Additional observations from a re-analysis of the deposited data

Results flagged for a closer look

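In P3 controls, 1 array stood apart from the other 3 by Dixon's test for Ddx58 (6.2204 log2 units in control 5), for Dhx58 (5.7206 in control 7) and for Ifit3 (5.6702 in control 5). Dhx58 and Ifit3 were below background in all 4 of these arrays, and Ddx58 was above it only in control 5. Chance flags about 1 in 20 groups.

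The other results are effects that differed between ages, each by a test of the difference itself on the log2 scale. The mean effect of P6, P13 and P20 exceeded the P3 effect by 1.1774 for Trim25 and by 3.6972 for Oasl2, whose P3 arrays were all below background, so that its value is not a measured size. The P6 effect exceeded the P3 effect by 2.2038 for Ifi35, by 2.0748 for Irf9 and by 2.3982 for Psmb8, and the P13 effect of Trim25 exceeded its P3 effect by 2.2633. The P20 effect minus the P6 effect was -2.0992 for Irf9 and -2.5773 for Psmb8, and for Trim25 the P20 effect minus the P13 effect was -1.9969. A second Psmb8 probe differed by 1.48 at P6 and by 0.98 at P20.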

How the results depend on the processing

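Under every alternative run, no count included a member that fell, and no named member's call changed direction. The P3 count was 0 throughout. At P6 the count of members past the threshold was 5 on the chip that held both sides, 0 with the fibroblast markers and 3 with the leukocyte markers as a covariate, 7 when chip was a fixed block, and 4 to 24 as each array was left out. At P13 it was 9 with the authors' normalized values, 23 with array weights, 23 with only the 2 groups compared, 1 with the leukocyte covariate and 2 to 16 as each array was left out. At P20 it was 2 with no background correction, no quantile step, no filter on dim probes or the authors' values, 12 with the chip as a random block, 0 with array weights, only the 2 groups compared, without the 2 chips with a background subtracted or on the chip with mutant 1, and 1 to 10 as each array was left out. In adults it was 8 with no quantile step, 1 with no filter, 5 with the chip as a random block or without the 2 subtracted chips, 0 with the fibroblast covariate or only the 2 groups compared, 1 on the chip that held both sides and 1 to 3 as each array was left out. For the later effects against P3 it was 1 with no background correction, an offset of 50, no filter, the mean of a gene's probes, the authors' values or the fibroblast covariate, 5 with no quantile step or the chip as a random block, 8 with array weights, 0 with the leukocyte covariate, 9 with the conflicting P3 array as a mutant and 0 to 16 as each array was left out. The cause of these changes was not tested, except that fits without an array or of 2 groups rest on fewer samples. The other alternatives gave 10 to 21 at P6, 12 to 20 at P13, 5 to 10 at P20, 2 to 3 in adults and 2 to 3 for the later effects. Trim25 at P13 passed under all 19 alternatives. Without the quantile step the median log2 difference of all genes was 0.19 at P6, 0.30 at P13 and 0.32 in adults. No paired analysis was possible because mutants and controls of an age share no sample numbers. The authors' values in adults, chips at P13 and leaving out the adult control gave no value and were not run. Dim signal limits what can be said of members near background.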
